A study of Mus musculus with 12 samples.

Results

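The genes described here are 7 transcription regulators of the naive and stem-like T cell state, chosen by name from the 23420 genes listed in each count table: Tcf7, Lef1, Bach2, Satb1, Id3, Foxp1 and Bcl11b. All 7 were listed in every table and all 7 passed the filter on low counts. Their messenger RNA was measured by RNA sequencing in 12 mouse libraries, 3 in each of 4 groups. Stimulated KO cells came from mice labelled OTUB1-DKO, in which CD4-Cre, a recombinase driven by the Cd4 promoter, deletes Otub1, and were kept 24 h with anti-CD3 and anti-CD28 at 1 µg/ml each, antibodies that engage the T cell receptor complex and the costimulatory receptor CD28. Stimulated WT cells had intact Otub1 and the same antibodies. Fresh KO and fresh WT cells had the same genotypes and were labelled untreated, and since these are taken as not cultured, stimulation and culture cannot be told apart. All mice were C57BL/6, 6 to 8 weeks old, and carried the OT-I receptor, a transgenic T cell receptor for an ovalbumin peptide. CD4-Cre acts in developing T cells, so other cells of the spleen keep Otub1. Whether replicates are separate animals is not in the labels. Stimulated KO, fresh KO and fresh WT each mix libraries with and without Y-linked reads and so draw on more than 1 animal, while in stimulated WT the spread behind the p-values may be technical.

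Naive T cells are held in a resting state by a set of DNA-binding proteins that keep receptors for lymph node homing and survival cytokines on and effector genes off. TCF-1, encoded by Tcf7, and LEF-1 are high mobility group factors that bind the same DNA letters, recruit beta-catenin or corepressors of the Groucho/TLE family, and also mark stem-like and memory CD8 T cells. SATB1 and BCL11B organise T cell chromatin and identity, BACH2 and FOXP1 restrain activation and effector differentiation, and ID3 blocks the DNA binding of E proteins.

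Libraries held 15064488 to 25920035 gene counts, and 14482 to 15384 genes had at least 1 count. The levels below are CPM, the counts of a gene per 1e6 library counts after TMM scaling, and "edgeR adjusted p" is the Benjamini-Hochberg adjusted p of a quasi-likelihood test over 12759 genes, called under 0.05. Otub1 was at 16.2, 13.8 and 14.5 CPM in stimulated KO cells and at 85.6, 100.1 and 96.1 CPM in stimulated WT cells. In fresh cells it was at 25.4, 28.8 and 28.6 CPM in KO and at 72.6, 70.8 and 45.1 CPM in WT, so each KO library was below each WT library of its state. A cell type tag of the labels names splenic DCs, while the design text names CD8 T cells. The 8 CD8 T cell markers summed to between 5507 and 5762 CPM in fresh WT, and the 14 dendritic cell markers to between 1753 and 2026 CPM. Most of the dendritic sum came from Cd74, H2-Aa, H2-Eb1 and H2-Ab1, which averaged 660, 291, 271 and 250 CPM in fresh WT. Ccr9 and Bst2 averaged 189 and 117 CPM, and the rest 36.2 CPM (Itgax) or less. The sum is therefore not a measure of the amount of dendritic cells. Libraries with Y-linked reads were stimulated KO replicate 3, fresh KO replicate 2 and fresh WT replicate 3, and counts that rest on them are given without them below.

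RefSeq starts of all 7 genes were found, 17 in all on GRCm38.p6, and the 250 bases before each were searched on both strands for letters that these factors or their partners bind. The TCF/LEF motif CTTTGAA stood before a start of Bcl11b and of Foxp1, in 2 of the 17 windows, against 4.46% of all 32851 windows, and the motif CTTTGAT in 0 of 17, against 3.21%. At least one of the pair stood in 7.48% of all windows. The E-box forms CAGGTG and CAGCTG, letters bound by the E proteins that ID3 blocks, stood in 4 of the 17 windows, before starts of Foxp1, Lef1, Satb1 and Tcf7, against 27.7% of all windows. The AP-1 type motif TGANTCA and the forkhead motif TGTTTAC stood in none of the 17, against 6.75% and 3.17% of all. A match is a description of letters and not of a bound site. The matches shown are both of the TCF/LEF motif, and those of the E-box forms before Satb1 and Lef1. These 2 genes had values above WT in stimulated KO but were not called. The E-box matches before Tcf7 and before another start of Foxp1 are not shown. Tcf7 and Foxp1 were called lower in stimulated KO, so the matches did not go with 1 direction. Sequences are given with the motif in capitals on the strand of the gene, where TTCAAAG is CTTTGAA and CACCTG is CAGGTG read on the other strand. The Foxp1 match began 205 bases before a start (chr6:99266533-99266765, minus strand), and the Bcl11b match 89 bases before a start, inside an annotated exon (chr12:108003486-108003515, minus strand). The Satb1 matches lay 172 and 64 bases before 1 start and also inside an annotated exon (chr17:51826743-51826772 and chr17:51826635-51826664, minus strand), and the Lef1 match 205 bases before a start (chr3:131112541-131112790, plus strand).
Foxp1: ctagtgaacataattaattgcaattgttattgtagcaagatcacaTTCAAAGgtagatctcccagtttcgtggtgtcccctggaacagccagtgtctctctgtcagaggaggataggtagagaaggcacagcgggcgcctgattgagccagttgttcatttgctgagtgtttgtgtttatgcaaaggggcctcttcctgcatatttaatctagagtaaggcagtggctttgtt
Bcl11b: agaggccaagcaCTTTGAAgaagtgtgaga
Satb1 CAGGTG: gctgtctgactcCACCTGcttgtgacttta
Satb1 CAGCTG: gggcgttctaccCAGCTGaagggggtggac
Lef1: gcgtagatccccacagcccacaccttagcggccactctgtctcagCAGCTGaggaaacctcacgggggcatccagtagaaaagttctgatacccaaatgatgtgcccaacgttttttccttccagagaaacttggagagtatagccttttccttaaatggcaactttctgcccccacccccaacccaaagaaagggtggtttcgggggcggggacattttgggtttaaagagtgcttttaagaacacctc

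Stimulation split the 7 genes into groups with opposite directions. Tcf7, Lef1, Satb1 and Bcl11b fell in both genotypes, Bach2 and Foxp1 rose in both, and Id3 fell in KO cells and was not called in WT cells. In KO cells 7 of 7 were called, against 83.9% of all genes tested, with 5 lower, against 42.2%, and 2 higher, against 41.7%. In WT cells 6 of 7 were called, against 82.3% of all genes, with 4 lower, against 41.4%, and 2 higher, against 40.8%. With this many genes called, these counts stand near the background and the size of each change carries the description. The median log2 fold change of the 7 was −1.17 in KO cells, against −0.02 over all genes, and −0.86 in WT cells, against −0.03 over all genes. The libraries of stimulated and fresh cells did not overlap for any of the 7 in either genotype, while this held for 84.6% of all genes in KO and 84.1% in WT.

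**Figure D1:**
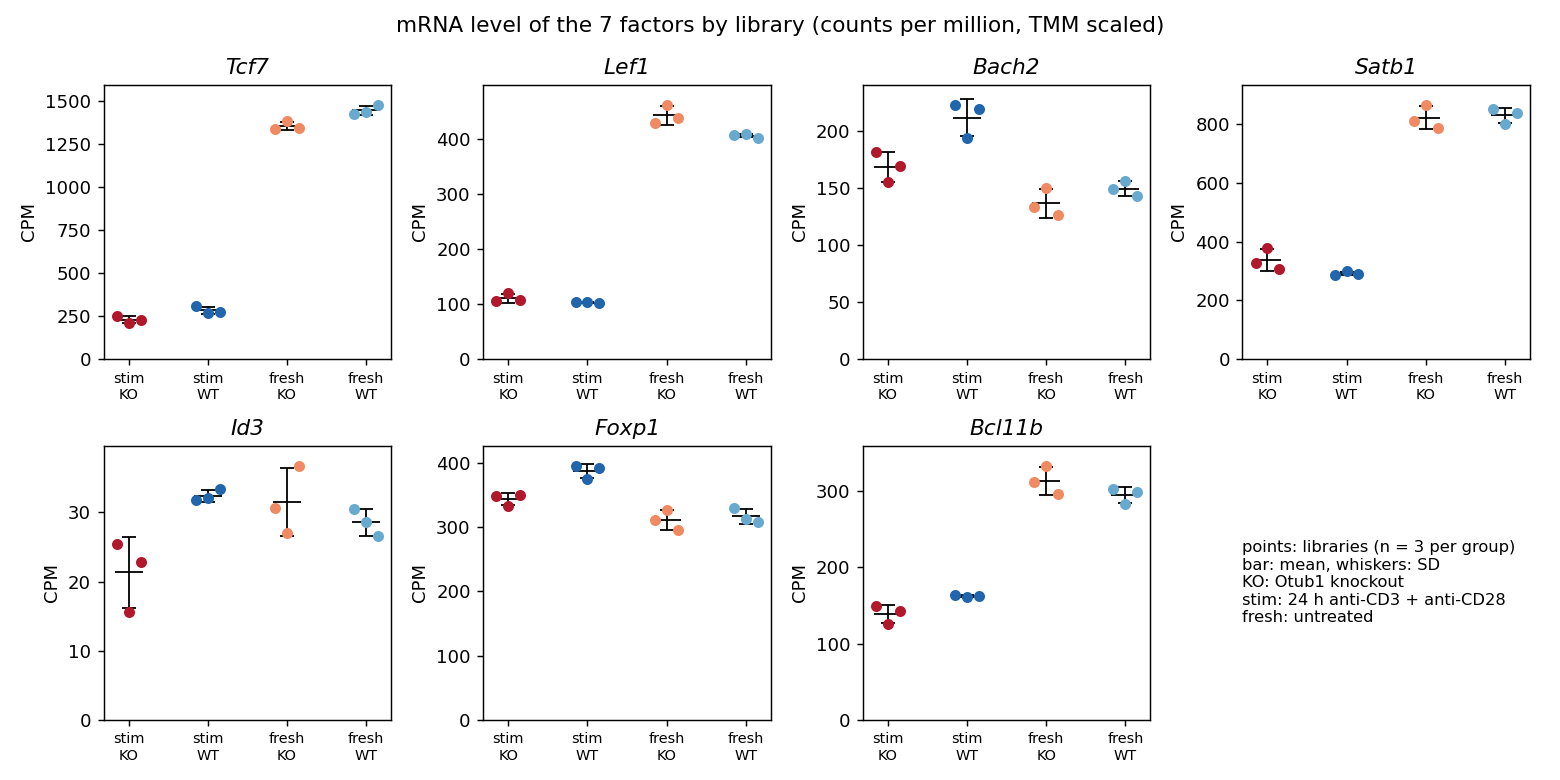
Level of each of the 7 genes in CPM (vertical axis, linear from 0) in the 12 libraries, with 1 point per library, a bar for the mean and whiskers for the SD of each group of 3. Tcf7 and Lef1 are several-fold lower in stimulated than in fresh cells, while Bach2 and Foxp1 are slightly higher.

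Tcf7 (chromosome 11, 52252371 to 52283014, minus strand, GRCm38) had the highest CPM of the 7 in fresh cells and the largest fall with stimulation in both genotypes. It was at 250.2, 211.1 and 225.7 CPM in stimulated KO cells and at 1337, 1380 and 1340 CPM in fresh KO cells. In WT it was at 307.2, 266.1 and 274.4 CPM in stimulated cells and at 1425, 1432 and 1474 CPM in fresh cells. Every stimulated library was far below every fresh one, at 16.9% of the fresh level in KO and 19.6% in WT. The log2 fold change was −2.56 in KO (SE 0.07, edgeR adjusted p = 1.84e-14) and −2.35 in WT (SE 0.07, edgeR adjusted p = 5.37e-14).

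Lef1 (chromosome 3, 131110471 to 131224356, plus strand), the partner of Tcf7 in the same family, was at 105.3, 119.4 and 106.2 CPM in stimulated KO cells and at 428.2, 460.5 and 437.1 CPM in fresh KO cells. WT cells had Lef1 at 102.7, 103.4 and 101.5 CPM in stimulated cells and at 407.0, 407.8 and 401.8 CPM in fresh cells. The stimulated libraries were again separate from the fresh ones, and the remaining share was almost the same in both genotypes, 24.9% in KO and 25.3% in WT. Its log2 fold change was −2.00 in KO (SE 0.05, edgeR adjusted p = 8.61e-15) and −1.98 in WT (SE 0.05, edgeR adjusted p = 1.28e-14). Its annotated exons share 1208 bases with an opposite-strand gene that the tables do not list.

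Satb1 (chromosome 17, 51736187 to 51833290, minus strand), which tethers chromatin loops in T cells, was at 328.5, 377.8 and 305.1 CPM in stimulated KO cells and at 812.3, 864.3 and 787.4 CPM in fresh KO cells. Satb1 in WT stood at 287.2, 298.2 and 287.9 CPM in stimulated cells and at 852.4, 801.4 and 836.6 CPM in fresh cells. Stimulated cells kept 41.0% of the fresh level in KO and 35.1% in WT, with log2 fold changes of −1.29 (edgeR adjusted p = 3.92e-11) and −1.51 (edgeR adjusted p = 6.94e-12). Bcl11b (chromosome 12, 107910403 to 108003602, minus strand), a zinc finger factor needed for commitment to the T cell lineage, was at 149.0, 125.9 and 142.8 CPM in stimulated KO cells and at 312.0, 333.0 and 296.6 CPM in fresh KO cells. WT values of Bcl11b were 163.7, 160.7 and 162.2 CPM in stimulated cells and at 302.4, 282.6 and 299.4 CPM in fresh cells. Here KO cells kept the smaller share of the fresh level, 44.4% against 55.0% in WT, with log2 fold changes of −1.17 (edgeR adjusted p = 2.69e-11) and −0.86 (edgeR adjusted p = 1.34e-09). Satb1 exons share 156 bases with a gene on the same strand and 128 bases with one on the opposite strand, neither listed in the tables.

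Bach2 and Foxp1 moved the other way. Bach2 (chromosome 4, 32238804 to 32586108, plus strand), which pairs with small Maf proteins and competes with AP-1 at its sites, was at 181.6, 155.2 and 169.3 CPM in stimulated KO cells and at 133.3, 150.4 and 126.2 CPM in fresh KO cells. Bach2 in WT stood at 222.8, 193.6 and 219.5 CPM in stimulated cells and at 148.8, 156.7 and 143.4 CPM in fresh cells. The lowest stimulated library stood only slightly above the highest fresh one in KO. Its log2 fold change was 0.30 in KO (SE 0.07, edgeR adjusted p = 0.00117) and 0.50 in WT (SE 0.07, edgeR adjusted p = 1.06e-05). Bach2 exons share 537 of their 8886 bases with Bach2os, an antisense gene. Without a stated strand setting, reads over these shared bases cannot be assigned to 1 gene of the pair.

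Foxp1 (chromosome 6, 98925338 to 99522721, minus strand), a forkhead factor of quiescence, was at 348.2, 332.8 and 350.4 CPM in stimulated KO cells and at 311.0, 327.3 and 294.9 CPM in fresh KO cells. WT cells had Foxp1 at 395.1, 375.1 and 391.9 CPM in stimulated cells and at 329.5, 312.2 and 308.4 CPM in fresh cells. These were the smallest called changes among the 7, with log2 fold changes of 0.14 in KO (SE 0.05, edgeR adjusted p = 0.0107) and 0.29 in WT (SE 0.05, edgeR adjusted p = 3.71e-05). Foxp1 exons share 300 and 135 bases with 2 genes on the same strand that the tables do not list. The KO call was lost without fresh KO replicate 3, at edgeR adjusted p = 0.0574.

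Id3 (chromosome 4, 136143497 to 136145755, plus strand) had the lowest counts of the 7. It was at 25.5, 15.6 and 22.9 CPM in stimulated KO cells and at 30.6, 27.0 and 36.7 CPM in fresh KO cells. In WT it was at 31.8, 32.1 and 33.4 CPM in stimulated cells and at 30.5, 28.6 and 26.6 CPM in fresh cells. Stimulated libraries were lower than fresh ones in KO and slightly higher in WT, with no overlap in either. The log2 fold change was −0.55 in KO (edgeR adjusted p = 0.00188) and 0.18 in WT (95% confidence interval −0.11 to 0.48, edgeR adjusted p = 0.235). In a fit of the 2 WT groups alone Id3 was called higher with stimulation (log2 fold change 0.17, edgeR adjusted p = 0.0347).

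**Figure D2:**
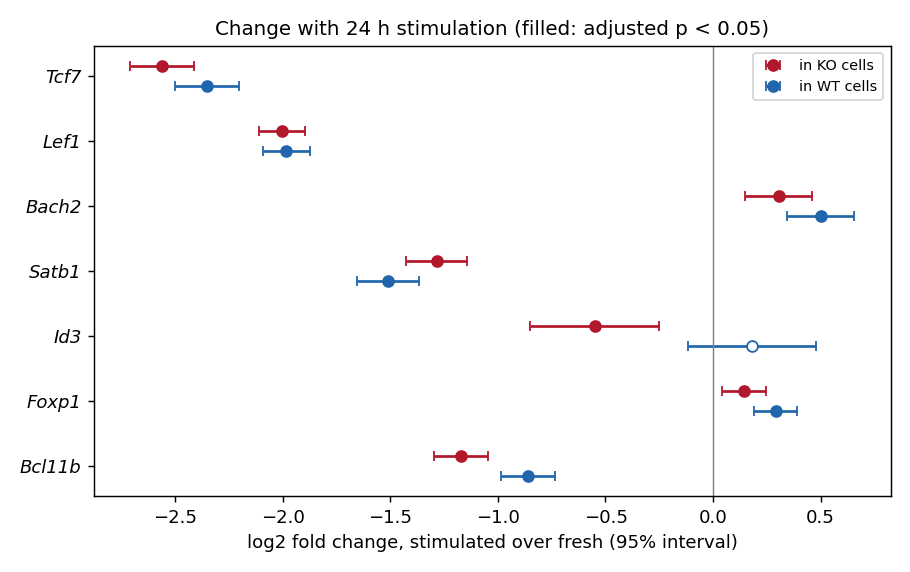
Log2 fold change of stimulated over fresh cells (horizontal axis) for each of the 7 genes, KO above WT, with 95% confidence intervals of the edgeR fit. Tcf7 and Lef1 lie near −2 or below in both genotypes, Bach2 and Foxp1 lie above 0, and the KO and WT values of Id3 lie on opposite sides of 0.

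Levels of different genes were set side by side per length of annotated exon, and Tcf7 led in each of the 4 groups. The length joins all annotated exons of a gene and not only those of the transcripts expressed, so close ranks may depend on this choice. In CPM per kilobase it averaged 87.2 ± 7.52 in stimulated KO, 107.6 ± 8.28 in stimulated WT, 515.1 ± 9.31 in fresh KO and 549.9 ± 10.00 in fresh WT (SD, n = 3 each). In fresh WT cells it was followed by Lef1 (115.7), Satb1 (72.2), Foxp1 (40.3), Bcl11b (36.3), Id3 (22.3) and Bach2 (16.8), with no overlap between neighbours in that order. In fresh KO cells the order was the same, but Foxp1 (39.6) and Bcl11b (38.7) overlapped between libraries. In stimulated KO cells Foxp1 moved to the second place (43.8), before Lef1 (31.5) and Satb1 (29.3), whose libraries overlapped, and Bach2 (19.0), Bcl11b (17.2) and Id3 (16.7) overlapped at the end. In stimulated WT cells the second place was again that of Foxp1 (49.4), then Lef1 (29.2). Id3 (25.4), Satb1 (25.3) and Bach2 (23.8) overlapped there, and Bcl11b came last.

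The effect of Otub1 loss after stimulation was addressed by comparing stimulated KO with stimulated WT cells. Tcf7, Bach2, Id3, Bcl11b and Foxp1 were lower in KO, and Satb1 and Lef1 were not called, with values above WT. These are 5 of 7 called lower, against 4.22% of all genes tested, and 0 of 7 called higher, against 5.08%. The 7 were chosen with earlier results of these data known, so the shares describe them and do not test for an excess. In either direction 9.3% of all genes were called. The KO and WT libraries did not overlap for any of the 7, with 5 lower and 2 higher in KO, while they did not overlap for 27.4% of all genes. The median log2 fold change of the 7 was −0.22, against −0.00 over all genes.

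Id3 showed the largest difference, 21.3 ± 5.14 CPM in stimulated KO against 32.4 ± 0.846 CPM in stimulated WT (SD, n = 3 each). That is 66.2% of the WT level, with −0.60 as log2 fold change (SE 0.14, edgeR adjusted p = 0.0151). Bach2 was at 169 ± 13.2 CPM in KO against 212 ± 16.0 CPM in WT, 79.7% of that in WT (log2 fold change −0.33, SE 0.07, edgeR adjusted p = 0.0109). Tcf7 was at 229 ± 19.7 CPM in KO against 283 ± 21.7 CPM in WT, 81.1% of that in WT (log2 fold change −0.30, SE 0.07, edgeR adjusted p = 0.0105). Of the 5 called genes, these had the largest log2 fold changes.

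Bcl11b was at 139 ± 12.0 CPM in stimulated KO and 162 ± 1.49 CPM in stimulated WT, 85.9% of that in WT (log2 fold change −0.22, SE 0.06, edgeR adjusted p = 0.0307). Foxp1 was at 344 ± 9.59 CPM in KO and 387 ± 10.7 CPM in WT, 88.7% of that in WT (log2 fold change −0.17, SE 0.05, edgeR adjusted p = 0.0334). Satb1 was at 337 ± 37.2 CPM in KO and 291 ± 6.14 CPM in WT, a log2 difference of 0.21 with an interval of 0.07 to 0.35 that did not pass after adjustment (edgeR adjusted p = 0.0603). Lef1 was at 110 ± 7.87 CPM in KO and 103 ± 0.975 CPM in WT, a log2 difference of 0.10 (95% confidence interval −0.00 to 0.21, edgeR adjusted p = 0.221).

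Stimulated KO replicate 2 lay farthest from the WT mean for all 7 genes, as the lowest KO library for the 5 that fell and the highest for Satb1 and Lef1. Without it, Tcf7, Bach2 and Id3 kept their calls (log2 fold changes −0.25, −0.27 and −0.42, edgeR adjusted p = 0.0436, 0.0414 and 0.0319), and Bcl11b and Foxp1 did not (edgeR adjusted p = 0.104 and 0.101). Without stimulated WT replicate 3 only Tcf7 was called. Foxp1 lost its call without stimulated KO replicate 1 (edgeR adjusted p = 0.068), and Bcl11b without stimulated WT replicate 2 (edgeR adjusted p = 0.0742). Without stimulated WT replicate 1 or stimulated KO replicate 3 there were 3 lower calls, likewise without the libraries with Y-linked reads.

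**Figure D3:**
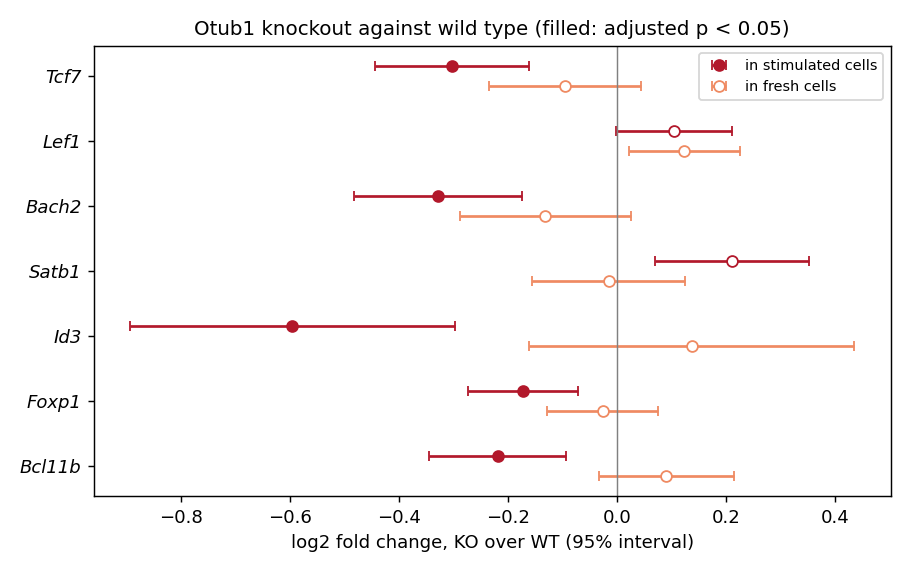
Log2 fold change of KO over WT (horizontal axis) for each of the 7 genes, stimulated cells above fresh cells, with 95% confidence intervals of the edgeR fit. In stimulated cells 5 intervals lie below 0 and passed after adjustment, while no fresh value passed.

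In fresh cells none of the 7 was called between KO and WT by edgeR, DESeq2 or limma-voom, where 1.2% of all genes were called by edgeR, 0.98% higher and 0.219% lower. At an unadjusted p under 0.05 there was 1, Lef1. Here and below, the share of all genes under the unadjusted threshold was not computed. Lef1 was at 442 ± 16.7 CPM in fresh KO and 406 ± 3.24 CPM in fresh WT, 109% of the WT level, with no overlap between the libraries (log2 fold change 0.12, 95% confidence interval 0.02 to 0.23, edgeR adjusted p = 0.249). Tcf7 was at 1352 ± 24.4 CPM in KO and 1444 ± 26.3 CPM in WT, also without overlap, with a log2 fold change of −0.09 (95% confidence interval −0.23 to 0.05, edgeR adjusted p = 0.568). Groups did not overlap for these 2 of 7, against 20% of all genes.

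The other 5 overlapped between the fresh groups. Bach2 was at 137 ± 12.5 CPM in KO and 150 ± 6.65 CPM in WT, with an interval of −0.29 to 0.03 on the log2 scale. For Satb1 the interval was −0.16 to 0.13, for Foxp1 −0.13 to 0.08 and for Bcl11b −0.03 to 0.21. Id3 had the widest interval, −0.16 to 0.44, around 31.4 ± 4.92 CPM in KO and 28.5 ± 1.96 CPM in WT. The median log2 fold change of the 7 was −0.02 in fresh cells, against −0.00 over all genes.

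Whether the effect of the knockout differed between stimulated and fresh cells was tested with the interaction term. None of the 7 was called by edgeR, where 2.26% of all genes were called, 0.698% higher and 1.56% lower. At an unadjusted p under 0.05 there were 5, with 4 lower (Tcf7, Id3, Foxp1 and Bcl11b) and 1 higher (Satb1). The share of all genes under that threshold was not computed, so this count has no background to be read against. DESeq2 called 2 lower, Id3 and Bcl11b (DESeq2 adjusted p = 0.0101 and 0.0182), and limma-voom called none. For Id3 the effect in stimulated cells minus that in fresh cells was −0.73 on the log2 scale (95% confidence interval −1.15 to −0.31, edgeR adjusted p = 0.0668). For Bcl11b it was −0.31 (95% confidence interval −0.49 to −0.13, edgeR adjusted p = 0.0654). A difference between the states was therefore not called by edgeR for any of the 5 genes that were lower in stimulated KO.

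Within a library, the ratio of 2 genes does not depend on scaling. The ratio of Tcf7 to Lef1 counts was 2.38, 1.77 and 2.12 in stimulated KO and 2.99, 2.57 and 2.70 in stimulated WT. In fresh cells it was 3.12, 3.00 and 3.06 in KO and 3.50, 3.51 and 3.67 in WT. KO ratios were below WT ratios in both states without overlap, by −0.41 in stimulated and −0.22 in fresh cells on the log2 scale (exact two-sided permutation p = 0.1 each, the smallest that 3 against 3 allows). In both states Tcf7 was lower and Lef1 higher in KO without overlap. The Tcf7 to Lef1 ratio therefore had to separate, and its p-value adds nothing to the levels of the 2 genes. The ratio of Id2 to Id3, related inhibitors of E proteins, was 1.40, 2.72 and 1.88 in stimulated KO and 1.10, 1.25 and 1.19 in stimulated WT. It was higher in KO by 0.71 on the log2 scale without overlap (exact two-sided permutation p = 0.1). In fresh cells it was 2.36, 2.78 and 2.04 in KO and 2.35, 2.72 and 3.11 in WT and overlapped (log2 difference −0.19, exact two-sided permutation p = 0.5). Id2 itself was at 40.4 ± 4.08 CPM in stimulated KO and 38.3 ± 2.89 CPM in stimulated WT (edgeR adjusted p = 0.631).

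**Figure D4:**
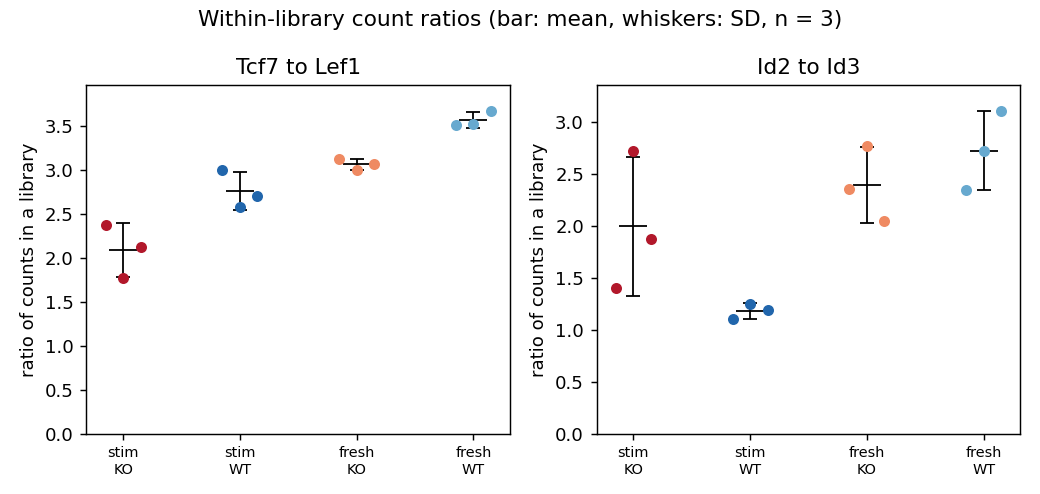
Ratio of Tcf7 to Lef1 counts and of Id2 to Id3 counts (vertical axes) in each of the 12 libraries, by group, with a bar for the mean and whiskers for the SD. The Tcf7 to Lef1 ratio is lower in KO than in WT in both states, and the Id2 to Id3 ratio is higher in stimulated KO than in stimulated WT.

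Likeness of profiles was measured as the root mean square difference of log2 CPM over the 12 libraries after centring each gene, among 9457 genes. Among the 7, Bach2 and Foxp1 were the closest pair (0.13), followed by Satb1 and Bcl11b (0.27) and by Tcf7 and Lef1 (0.30), and Tcf7 and Bach2 were the farthest apart (1.43). The nearest other genes were Add3 and Sun2 for Tcf7 (0.069 and 0.078), Dap and Anxa6 for Lef1 (0.073 and 0.074), and Pik3r1 and Rictor for Satb1 (0.063 and 0.081). They were Mmd and Atp2b1 for Bach2 (0.081 and 0.10) and Atp2b1 and Atp2c1 for Foxp1 (0.055 and 0.056). For Bcl11b they were Tle3 (0.052), which encodes a corepressor that TCF-1 and LEF-1 bind, and Ptk2b (0.054). Id3 had no neighbour as close, with Lrmp at 0.16 and Gtpbp6 at 0.18. The measure takes in the spread between replicates. For Id3 the coefficient of variation was 24.1% in stimulated KO and 15.7% in fresh KO. The share of this spread in its distances was not tested.

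Over all genes, 4.22% were called lower and 5.08% higher in stimulated KO. Tle3 was the 1 gene called lower there among 15 tested beta-catenin and Groucho/TLE partners. It was at 138 ± 8.40 CPM in stimulated KO and 160 ± 4.66 CPM in stimulated WT (log2 fold change −0.21, edgeR adjusted p = 0.0392), and its interaction term was called (−0.36, edgeR adjusted p = 0.0321). Tle2 was called higher, at 1.09 ± 0.130 CPM in stimulated KO against 0.542 ± 0.109 CPM in stimulated WT. Among the 8 tested relatives of the 7 genes, Bach1, the paralogue of Bach2, was called lower, at 37.3 ± 5.55 CPM in stimulated KO against 49.9 ± 3.78 CPM in stimulated WT (log2 fold change −0.42, edgeR adjusted p = 0.0157), and none was called higher. Of the 3 small Maf partners of BACH2, Maff was higher in stimulated KO (log2 fold change 0.55, edgeR adjusted p = 0.0287). None of the 3 E protein genes and none of the 12 chromatin partners of BCL11B and SATB1 was called there by edgeR, DESeq2 or limma-voom, and at an unadjusted p under 0.05 there were 0 and 1.

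The lists that follow were chosen with earlier results of these data known. In stimulated KO against stimulated WT, 4.22% of all genes were called lower and 5.08% higher. Of 18 other transcription factors of resting T cells, 6 were lower and 1 higher in stimulated KO than in stimulated WT, with a median log2 fold change of −0.10. Klf2, which drives the homing receptors of naive cells, was at 5.71 ± 0.433 CPM in stimulated KO and 9.74 ± 1.32 CPM in stimulated WT (log2 fold change −0.77, edgeR adjusted p = 0.00269). Of 18 surface and signalling genes of naive cells, 8 were lower and 1 higher, with a median of −0.30. S1pr1, the receptor for exit from lymphoid organs, was at 6.91 ± 1.11 CPM in KO and 11.5 ± 1.66 CPM in WT (log2 fold change −0.75, edgeR adjusted p = 0.00349), and the 1 higher gene was Ccr7, a lymph node homing receptor (log2 fold change 0.42, edgeR adjusted p = 0.0465). Of 14 effector transcription factors, 4 were higher and none lower, with a median of 0.24. Prdm1, which encodes BLIMP-1, a factor of terminal effector cells, was at 3.48 ± 0.836 CPM in KO and 1.67 ± 0.324 CPM in WT (log2 fold change 1.05, edgeR adjusted p = 0.00845). Bhlhe40 was at 213 ± 51.6 CPM in KO and 131 ± 14.5 CPM in WT (log2 fold change 0.70, edgeR adjusted p = 0.00458).

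**Figure D5:**
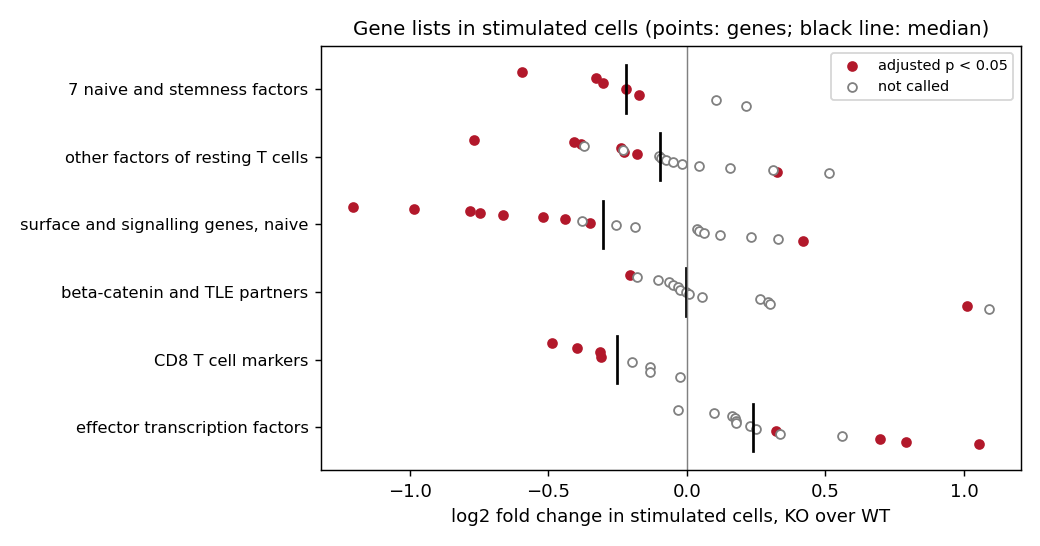
Log2 fold change of stimulated KO over stimulated WT (horizontal axis) for the genes of 6 lists, with 1 point per gene, filled where called by edgeR, and a black line at each list's median. Called genes lie mostly below 0 in the lists of resting cells and of CD8 T cells and above 0 among the effector factors.

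In fresh cells the lists differed in their calls. None of the 18 resting-cell factors was called by edgeR, DESeq2 or limma-voom, and at an unadjusted p under 0.05 there were 3 higher and 1 lower. Of the 18 surface genes 2 were lower, Dapl1 and Igfbp4, where 0.219% of all genes were lower. Of the 14 effector factors 3 were higher, Tbx21, Eomes and Runx3 (log2 fold changes 1.28, 0.64 and 0.26), where 0.98% of all genes were higher. With stimulation, 15 of the 18 resting-cell factors were lower in KO, where 42.2% of all genes were lower, and 16 in WT, where 41.4% were. Klf2 fell furthest, by 6.28 on the log2 scale in KO and by 5.41 in WT.

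Markers of T cells and of other cells also moved. Of the 8 CD8 T cell markers 4 were lower in stimulated KO than in stimulated WT (Cd3g, Cd3d, Cd8a and Cd3e), where 4.22% of all genes were lower and 5.08% higher. Their median log2 fold change was −0.25, and the summed level of the 8 was 1953 to 2142 CPM in KO against 2350 to 2460 CPM in WT. The share of that difference in the results for the 7 genes was not tested. B cell markers summed to 22.5 to 29.8 CPM in stimulated KO and 26.5 to 31.7 CPM in stimulated WT, with none of 10 called, and dendritic cell markers to 192 to 203 CPM in KO and 172 to 205 CPM in WT, with 2 of 14 called higher (Batf3 and Zbtb46) and 1 lower (Ccr9). Ccr9 is also on the list of naive surface genes. Batf3 averaged 2.62 CPM in fresh WT and 16.6 CPM in stimulated WT, and Clec9a 20.8 and 0.0793 CPM. The stimulated sum and its calls therefore need not follow the amount of dendritic cells. The NK cell markers Klra4 and Klra8 had 0 counts in all 12 libraries. Siglech and Cd209a of the dendritic list, C1qa, Cd14, Emr1, S100a8 and S100a9 of the myeloid list, and Klra9, Klrb1c and Ncr1 of the NK list had 0 counts in at least 1 stimulated library. The 4 CD4 T cell markers summed to 9.59 to 11.7 CPM in stimulated KO and 8.96 to 15.5 CPM in stimulated WT, and the 7 NK cell markers to 2.24 to 2.82 CPM in KO and 2.12 to 3.91 CPM in WT, with none of the 9 tested called by edgeR, DESeq2 or limma-voom and 0 at an unadjusted p under 0.05. Between states the sums differed more. B cell markers were at 148 to 214 CPM in fresh KO and 152 to 171 CPM in fresh WT, and dendritic cell markers at 1422 to 1998 CPM in fresh KO and 1753 to 2026 CPM in fresh WT. Myeloid markers summed to 3.50 to 3.71 CPM in stimulated KO and 3.71 to 4.99 CPM in stimulated WT, against 41.6 to 74.6 CPM in fresh KO and 52.2 to 80.9 CPM in fresh WT. All 9 were called lower with stimulation in both genotypes, where 42.2% of all genes were lower in KO and 41.4% in WT. Fewer cells of a type and less RNA per cell cannot be told apart in these bulk libraries, and the part of the other cells in the falls of the 7 genes with stimulation was not tested.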

How the data were processed

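Counts per gene were measured by RNA sequencing in 12 libraries in 4 groups of 3, taken from the source labels. The authors deposited raw read counts per gene, not normalized, 1 table a library. The submitters' processing notes name HTSeq, TopHat, TopHat2, DESeq2 and the build mm10. The sources used here give no versions, annotation or strand setting. The 5 HTSeq summary lines of each table (5.22% to 6.43% of its total) were left out. No pair of replicates agreed within sampling noise (chi-square over degrees of freedom 4.26 to 18.6).

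Tests used edgeR 4.0.16 in R 4.3.3. Counts were filtered by filterByExpr, scaled by TMM (factors 0.988 to 1.01) and fitted in 1 quasi-likelihood model over all 12 libraries (8 residual degrees of freedom), with two-sided tests and Benjamini-Hochberg adjustment over 12759 genes. DESeq2 1.42.0 and limma-voom 3.58.1 were alternatives, beside other scalings, no filter, each library left out, the libraries with Y-linked reads left out or as a covariate, and 2-group fits. The code was tested on simulated data. Exon lengths and positions came from GENCODE M21 (GRCm38), promoters from RefSeq.

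The members and lists were chosen with earlier results of these data known. Named list genes are at most 4 called per list and comparison, by largest fold change, and the 2 genes nearest each member. Ccr7, as the 1 higher gene of its list, was named after its value was seen. The dendritic cell markers with the highest levels in fresh WT were also named after their values were seen.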

Additional observations from a re-analysis of the deposited data

How the results depend on the processing

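Over 20 alternatives (19 for the interaction), 693 fold changes of the 7 genes were recomputed: 653 kept direction and side of the threshold, 16 lost a call and 14 gained one. The other 10 were not called and changed sign: 4 of Satb1 and 2 of Foxp1 in fresh KO against WT, and 4 of Lef1 in the interaction. No called value changed sign. For a comparison of 2 groups, the 20 include fits without a library of the other groups, which takes no direct part in it. Tcf7 in stimulated KO against WT was called in all 20 (highest adjusted p = 0.0436). Without the libraries with Y-linked reads, 3 of the 7 were lower and 1 higher (Satb1) in stimulated KO, with 359 genes lower in all, and the interaction had 55 genes higher and 67 lower. In fresh KO 53 genes were then higher. DESeq2 called 1 of the 7 higher (Satb1) in stimulated KO, 2 lower in the interaction, 227 genes higher and 101 lower in fresh KO, and 188 higher and 360 lower in the interaction. Without a filter there were 1 higher in stimulated KO and 2 lower in the interaction among the 7, 202 genes higher and 43 lower in fresh KO, and 151 higher in the interaction. Library totals and the Y-linked covariate each called 1 of the 7 lower in the interaction. Fresh KO had 57 genes lower with that covariate and 49 with limma-voom, and stimulated KO had 358 lower in the 2-group fit. Bcl11b lost its call in that 2-group fit (edgeR adjusted p = 0.0566), and Id3 gained a higher call with stimulation in the 2-group fit of WT. The cause of these moves was not tested. With 1 library left out, among the 7 the lower calls in stimulated KO ranged from 1 to 5, the higher from 0 to 1, the lower interaction calls from 0 to 2, and the higher calls with stimulation in KO from 1 to 2. All 5 lower calls were kept only where a fresh library, outside that comparison, was left out. Each stimulated library left out cost the call of Foxp1, of Bcl11b or of both. Over all genes, with 1 library left out, fresh KO had 21 to 170 higher and 8 to 76 lower, stimulated KO 258 to 796 higher and 256 to 532 lower, and the interaction 32 to 153 higher and 99 to 252 lower. The KO minus WT log2 ratio of Id2 to Id3 ranged from 0.46 to 0.94 in stimulated and from −0.30 to −0.08 in fresh cells. That of Tcf7 to Lef1 ranged from −0.51 to −0.29 in stimulated and from −0.23 to −0.20 in fresh cells. No paired analysis was possible because the numbers in the sample titles run on across the groups. No 2 groups compared with each other share a number, and the replicate numbers used here only name libraries within a group. Id3 had the fewest counts of the 7, and its CPM had a coefficient of variation of 24.1% in stimulated KO and 15.7% in fresh KO, against 2.61% in stimulated WT and 6.87% in fresh WT. The share of depth in that spread was not tested.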
